A study of Mus musculus with 8 samples.

Results

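The genes described here encode the thin filament of the sarcomere, its Z-disc and its M-band, together with the proteins that bind them, and were measured in soleus (SOL) muscle. They were taken by name as a list of 41 genes, drawn up with earlier results of these data known. All 41 have a row among the 24054 genes of the deposited table. In striated muscle, thin filaments of actin and tropomyosin are anchored at the Z-disc by α-actinin and run alongside nebulin. Their free ends are capped by tropomodulin and lengthened by leiomodin. Titin spans from the Z-disc to the M-band, where myomesins tie thick filaments together, and LIM, ankyrin repeat and MuRF proteins dock on titin or the Z-disc and are known for their response to load and stretch. Several families have fast and slow fiber forms, and SOL is a muscle with many slow fibers.

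The study compared SOL of 4 MI4KO mice, which lack the transcription factor IRF4 in skeletal muscle, with SOL of 4 flox littermates, to find the transcripts that change with the knockout. All 8 mice were males of strain C57BL/6, and no age is given for them. The labels give a high fat diet for each mouse, while the study's text does not name that diet for the sequenced mice, so their diet is uncertain here. The MI4KO mice carried the floxed Irf4 allele and the Cre knock-in Myl1-Cre, which acts in muscle fibers, and the flox mice carried floxed Irf4 without Cre. Whole muscle also holds nuclei of vessels, nerve, connective tissue and immune cells, which this Cre driver is not known to target. In bulk muscle, fewer fibers of a type and less RNA per fiber cannot be told apart.

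Irf4, the targeted gene, was read at TMM-normalized CPM values (reads per gene scaled to library size, the unit of every value here) of 0.686, 1.46, 1.58 and 1.68 in flox mice 1 to 4 and 0.725, 0.840, 0.266 and 1.03 in MI4KO mice 1 to 4. Only flox mouse 1 lay within the MI4KO range, the other 3 flox values lying above all MI4KO values. The means of 1.35 ± 0.451 and 0.715 ± 0.324 (SD, n = 4 each) rested on 4 to 23 reads per library. The log2 fold change, on the log2(value + 1) scale, was −0.45 ± 0.20 (SE; limma, unadjusted p = 0.0402, adjusted p = 1.0; exact two-sided permutation p = 0.114). Without flox mouse 1 it was −0.60 (limma, unadjusted p = 0.00806, adjusted p = 0.99939, and exact two-sided permutation p = 0.0571). Without MI4KO mouse 3 it was −0.31, and the unadjusted p ranged up to 0.120 with 1 mouse left out. Without both of these mice it was −0.47 (limma, unadjusted p = 0.0167, and exact two-sided permutation p = 0.1). At values this low a pseudocount of 1 understates the change. Over all 8 mice the log2 fold change was −0.88 with a pseudocount of 0.1 (limma, unadjusted p = 0.0487). On recovered reads it was −0.86 with edgeR (unadjusted p = 0.0562) and −0.87 with DESeq2 (unadjusted p = 0.0583). Which exons are floxed is not given in the sources used here, so reads outside them cannot be separated. Libraries held 13417512 to 16384565 reads on genes, and 40 of the 41 members rested on at least 57 reads in every library. Liver marker transcripts (8 genes) summed to 149.6 in flox mouse 1 against 5.22 to 14.4 elsewhere, and MI4KO mouse 3 gave the highest value of 30.9% of all genes tested. Some of the values that these 2 libraries move are given also without them, and the others only with all 8 mice.

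Transcript level per length spanned a wide range among the members. Acta1, skeletal α-actin, was by far the most abundant, with 25002 ± 2172 per kb in flox mice and 24184 ± 1993 per kb in MI4KO mice (value divided by the length of the longest coding transcript, SD, n = 4 each). Next came Tpm2 (β-tropomyosin, 6158 ± 444 and 5909.8 ± 435 per kb) and Tcap (telethonin, which caps titin at the Z-disc, 4435 ± 334 and 4338 ± 433 per kb). Tpm1, Des, Actn2, Mybpc1 and Tpm3 followed, in that order of mean level. At the lower end stood Trim55 (12.5 ± 1.57 and 12.1 ± 1.09 per kb), Ankrd1 (9.12 ± 1.04 and 6.68 ± 3.21 per kb) and Mybph (0.760 ± 0.336 and 0.652 ± 0.223 per kb), the last on only 14 to 40 reads per library. The giant Ttn ranked 31 of 41 per kb although it took 0.804% to 1.12% of all reads. Members together took 11.7% to 13.1% of the reads of a mouse, and Acta1 alone 3.32% to 3.71%. Levels and shares per kb assume the longest coding transcript, and values per gene do not tell which transcript was present.

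**Figure D1:**
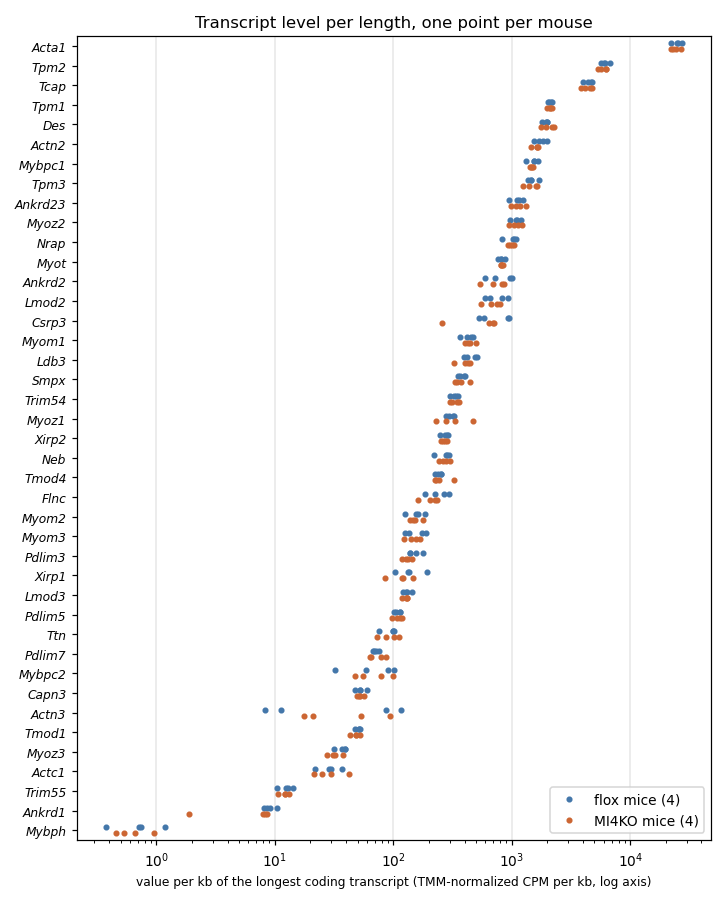
Level of each member per kb of its longest coding transcript (TMM-normalized CPM per kb, log axis), with 1 point per mouse, flox in blue and MI4KO in orange. Acta1 lies near 25002 per kb and Mybph under 1.5 per kb, the points of both groups lie over each other in every row, and the widest rows are Actn3 and Ankrd1.

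Reads shared between genes could touch few of these levels. Of the 50-base stretches of each longest coding transcript, none was found in another coding gene for most members, Acta1 and Actc1 shared none with each other, and Acta1 shared 2.0% with the cytoplasmic actins Actb and Actg1. Tpm3 shared 62.4% with Tpm3-rs7 and Ankrd23 88.7% with Gm42417, neither of which has a row in the table, so the levels of Tpm3 and Ankrd23 are uncertain to that extent. Opposite-strand exons overlap 9 members, among them Ttn, Des, Nrap, Mybpc1 and Mybpc2. The library kit keeps strand, and the strand setting of the counting is not given in the sources used here.

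Start-site sequences are shown for both sarcomeric α-actins, the member with the highest level and its paralog, and for Pdlim3, the member with the lowest p in the comparison. Each run is the 250 bases before the RefSeq start site (GRCm38.p6), read 5′ to 3′ on the gene's strand, with matches to the motifs searched in capitals. Acta1 lies at chr8:123891769-123894751 (minus strand), Actc1 at chr2:114047282-114053548 (minus strand) and Pdlim3 at chr8:45885461-45919548 (plus strand), and the windows are chr8:123894776-123895025, chr2:114052876-114053125 and chr8:45885237-45885486. The first exon of the longest GENCODE transcript begins within the last 26 bases of the Pdlim3 window and the last 12 of the Actc1 window. For Acta1 it begins 24 bases downstream of the RefSeq start site. Positions below count from the RefSeq start site, so those of Acta1 lie 24 bases farther upstream of the GENCODE start.
Acta1: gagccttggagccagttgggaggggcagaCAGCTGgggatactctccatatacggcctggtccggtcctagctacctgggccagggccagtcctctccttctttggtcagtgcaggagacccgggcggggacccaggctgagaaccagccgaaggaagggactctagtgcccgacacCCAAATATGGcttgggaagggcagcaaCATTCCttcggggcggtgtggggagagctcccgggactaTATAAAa
Actc1: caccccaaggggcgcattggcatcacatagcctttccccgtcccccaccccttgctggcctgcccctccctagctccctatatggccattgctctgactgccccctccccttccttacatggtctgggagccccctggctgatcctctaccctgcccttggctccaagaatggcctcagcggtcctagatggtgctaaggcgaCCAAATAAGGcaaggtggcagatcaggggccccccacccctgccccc
Pdlim3: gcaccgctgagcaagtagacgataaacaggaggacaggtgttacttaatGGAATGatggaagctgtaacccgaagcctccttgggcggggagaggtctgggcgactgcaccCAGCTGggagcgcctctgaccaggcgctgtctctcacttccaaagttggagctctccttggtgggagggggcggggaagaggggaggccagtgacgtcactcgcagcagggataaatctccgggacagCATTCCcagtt
Both actins held a CArG box, the site of serum response factor, with its first base at −73 in Acta1 and −47 in Actc1. Acta1 also held the E-box CAGCTG at −221, the M-CAT motif CATTCC at −46 and TATAAA at −7, and Pdlim3 held CAGCTG at −139 and CATTCC at −201 (on the other strand) and −11.

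The RefSeq table gave 38 windows, each reaching from 250 bases before to 50 after a start site, for 31 of the 41 members. No entry was present for Actn3, Lmod3, Myom2, Myot, Myoz1, Myoz3, Neb, Tcap, Trim55 and Xirp1. Searched on both strands, with overlapping matches counted under each motif, a CArG box was in 13.2% of the member windows and 1.63% of all 32851 windows, in Acta1, Actc1, Ldb3 and Myom1. The MEF2 box was in 13.2% against 3.19%, in Capn3, Myom3, Myoz2, Ttn and Xirp2. The E-box CAGCTG was in 34.2% against 16.3%, CATTCC in 34.2% against 14.7%, and TATAAA in 13.2% against 13.6%. The interferon-stimulated response element GAAANNGAAA, the motif class that IRF proteins are known to bind, was in 1 member window, that of Pdlim5, which is 2.63% against 3.44% of all windows. These matches are letters in a window and no binding was measured.

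None of the 41 members differed between MI4KO and flox SOL after adjustment over all genes tested. With limma on log2(value + 1), the smallest adjusted p of a member was 1.0, and 0% of the 11865 genes tested had an adjusted p under 0.05, while 3.36% had an unadjusted p under 0.05. All 41 members passed the filter on low values (1 or more in 4 or more mice). At an unadjusted p under 0.05 stood 1 member, Pdlim3, which is 2.44% of the members, lower in MI4KO as were 2.95% of all genes. No member combined that p with a change of 1.5-fold (0.219% of all genes did), and in no member did the 4 MI4KO values lie apart from the 4 flox values (2.07% of all genes). On the recovered reads, edgeR and DESeq2 likewise called 0 genes after adjustment, with 363 (3.06%) and 248 (2.09%) of all genes and 1 member each (Myoz3 by edgeR, Pdlim3 by DESeq2) at an unadjusted p under 0.05.

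The intervals were narrow for most members. For 36 of 41 (87.8%) the 95% interval of the log2 fold change lay within 1.5-fold in either direction, against 90.7% of all genes, and the members outside were Actn3, Ankrd1, Csrp3, Xirp1 and Mybpc2. The median absolute log2 fold change was 0.05 over the members and 0.07 over all genes tested, and the median standard error 0.11 for both. The log2 fold change was below 0 in 29 of 41 members and in 56.2% of all genes, with medians of −0.03 and −0.01. That split depended on scaling, since 22 members were below 0 after median-of-ratios scaling and 16 after scaling by library size, where the median of the members was 0.01 and that of all genes 0.03.

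**Figure D2:**
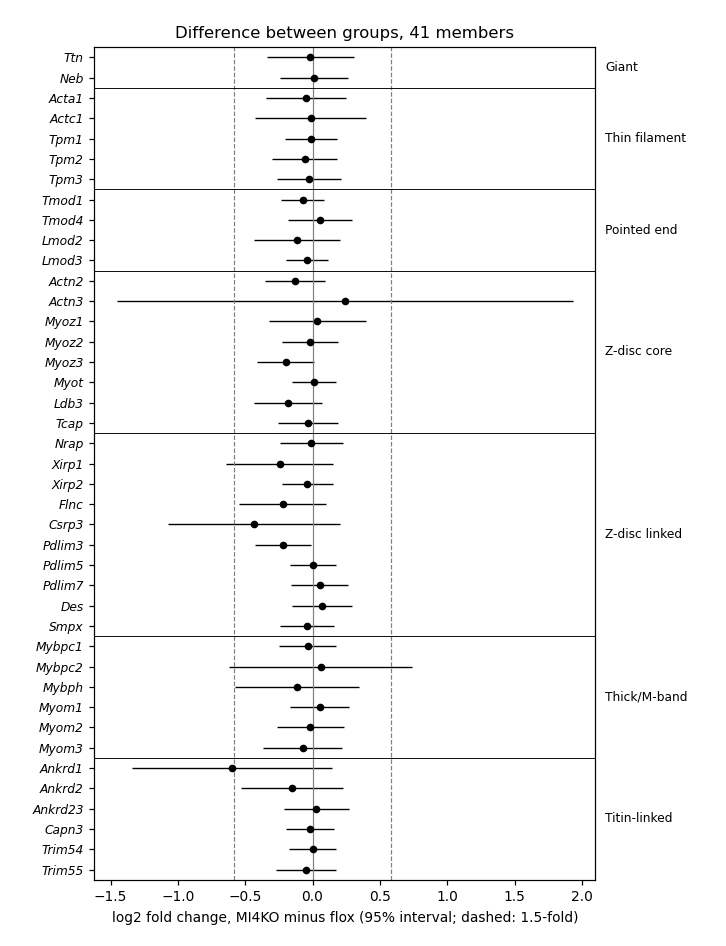
log2 fold change of MI4KO against flox for the 41 members, ordered by role (points, limma estimates on log2(value + 1); bars, 95% intervals; dashed lines, 1.5-fold). Intervals cross 0 for every member but Pdlim3, whose interval ends at −0.01, and the widest interval is that of Actn3, from −1.45 to 1.93.

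Neither giant scaffold gene separated the groups. Ttn, titin, was read at 10583, 8120.0, 10835 and 10571 in flox mice 1 to 4 and at 7828, 9269, 11946 and 10847 in MI4KO mice 1 to 4. MI4KO mice held both the lowest and the highest value, and the log2 fold change was −0.02 (95% interval −0.34 to 0.31). Neb, nebulin, which runs along the thin filament, ranged from 4978 to 6667 in flox and from 5432 to 6739 in MI4KO, with a log2 fold change of 0.01 ± 0.12 (SE).

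None of the 5 thin filament genes passed the test, and their log2 fold changes lay between −0.06 (Tpm2) and −0.01 (Tpm1). Acta1 was read at 36037, 32190.0, 39858 and 36525 in flox mice and 35423, 33567, 38784 and 32105 in MI4KO mice. The groups overlapped over nearly the whole range, with a log2 fold change of −0.05 (95% interval −0.35 to 0.25). Tpm2 values were 13162, 12328, 14661 and 13424 in flox and 13708, 12408, 13563 and 11736 in MI4KO (log2 fold change −0.06 ± 0.11, SE). Tpm1, the α-tropomyosin gene, had 5947, 6159.5, 6379 and 5878 against 6279.5, 5715, 6108 and 6084 (−0.01 ± 0.09). The slow tropomyosin Tpm3 had 3073, 3256, 3792 and 3263 against 3615, 3130.0, 3656 and 2789.5 (−0.03 ± 0.11). No tropomyosin separated the groups, and per kb Tpm1 made up 58.5% ± 1.51 of Tpm1 plus Tpm3 in flox and 58.7% ± 2.83 in MI4KO (SD, n = 4 each). Actc1, cardiac α-actin, ranged from 31.4 to 62.4 over the 8 mice and was 0.0795% to 0.173% of the 2 sarcomeric actins per kb.

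The pointed-end genes cap or lengthen the thin filament at its free end, and again none of the 4 passed the test. Tmod1 was read at 165, 151, 162 and 162 in flox mice and 153, 136, 165 and 154 in MI4KO mice (log2 fold change −0.07 ± 0.07, SE). Tmod4, the skeletal tropomodulin, had means of 306 ± 17.9 and 322 ± 59.7 (0.06 ± 0.11) and made up 82.7% ± 1.24 and 83.9% ± 1.61 of both tropomodulins per kb. MI4KO mouse 3 had the highest value of both tropomodulins. Among the leiomodins, which nucleate and elongate actin, Lmod2 had means of 1485 ± 301 and 1364 ± 213 (−0.11 ± 0.15). Lmod3 was read at 270.0, 283, 318 and 291 in flox and 290.0, 289.9, 262 and 287 in MI4KO (−0.04 ± 0.07). Both leiomodins were lowest in MI4KO mouse 3 and highest in flox mouse 3.

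In the Z-disc core, the α-actinins, their binding partners of the myozenin (calsarcin) family, myotilin, ZASP and telethonin, none of 8 genes passed the test. Actn2, the α-actinin of all fibers, was read at 5121, 4642, 5999.8 and 5519 in flox mice and 4926, 4974, 4427 and 5023 in MI4KO mice. The log2 fold change was −0.13 (95% interval −0.36 to 0.09). The 3 MI4KO mice other than mouse 3 differed from one another by under 100, and all lay within the flox range. Myoz3 had 128, 134, 136 and 109.6 against 112, 95.8, 128 and 106, a log2 fold change of −0.20 (95% interval −0.41 to 0.01, exact two-sided permutation test, p = 0.143). Flox mice 1 (127.75) and 4 lay among the MI4KO values, the highest of which was 128.5 in mouse 3. MI4KO mice 1 and 3 lay among the flox values. Leaving out MI4KO mouse 3 moved Myoz3 to −0.27 (limma, unadjusted p = 0.00694) and leaving out flox mouse 4 likewise to −0.27 (unadjusted p = 0.0201), with no adjusted p of a member below 0.969.

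Ldb3, which encodes the PDZ and LIM protein ZASP, had means of 2324 ± 281 in flox and 2049 ± 266 in MI4KO (log2 fold change −0.18 ± 0.12, SE), and −0.09 without MI4KO mouse 3. Tcap was read at 3781, 4147, 4409.6 and 4479 in flox and 4375, 4523, 3919 and 3633 in MI4KO (−0.03 ± 0.10). Myot, myotilin, had the smallest spread of the Z-disc core, 1684 to 1937 over all 8 mice, with means of 1809.8 ± 104 and 1821 ± 43.4 (0.01 ± 0.08).

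The proteins linked to the Z-disc held the only member under an unadjusted p of 0.05. Pdlim3, the α-actinin-binding PDZ and LIM protein ALP, was read at 224, 222, 288 and 250.1 in flox mice and 233, 205, 189 and 215 in MI4KO mice. Only MI4KO mouse 1 lay within the flox range, the other 3 lying below it. Its means were 246 ± 30.8 and 211 ± 18.3 (SD, n = 4 each), a log2 fold change of −0.22 (95% interval −0.42 to −0.01, limma, unadjusted p = 0.0382, adjusted p = 1.0). By exact permutation (two-sided) p was 0.114, where the smallest p that 4 against 4 mice allow is 0.0286. The unadjusted limma p was above 0.05 when flox mouse 3 or 4 or MI4KO mouse 2, 3 or 4 was left out, and the log2 fold change was −0.14 without flox mouse 3 and −0.17 without MI4KO mouse 3. Of the related PDZ and LIM genes, Ldb3 is given above, Pdlim5 had means of 549 ± 33.2 and 549.6 ± 43.4, and Pdlim7 had means of 135 ± 7.28 and 141 ± 21.5.

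Csrp3, which encodes muscle LIM protein, was read at 479.7, 521, 830.1 and 854 in flox mice and 631, 634, 231 and 573 in MI4KO mice. MI4KO mouse 3 stood far below the other 7 mice, and the other MI4KO values lay inside the flox range. Its log2 fold change of −0.43 (95% interval −1.07 to 0.20) became −0.08 without MI4KO mouse 3. Xirp1, encoding the actin-binding protein Xin, had 791, 601, 1133 and 781 in flox and 706, 699, 503 and 857 in MI4KO (−0.25 ± 0.18, SE). Flnc, filamin C, had 2025, 1676, 2684 and 2411 against 1864, 2019, 1475 and 2131 (−0.22 ± 0.15). Both genes were highest in flox mouse 3 and lowest in MI4KO mouse 3. The differences shrank to −0.10 and −0.11 without MI4KO mouse 3 and grew to −0.39 and −0.35 without flox mouse 2 (limma, unadjusted p = 0.0499 and 0.0296, adjusted p of every member at least 0.99961). Xirp2, the larger Xin gene, varied little (2990.5 to 3488 over 8 mice, −0.04 ± 0.09).

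Des, the muscle intermediate filament desmin, had means of 5862 ± 242 in flox and 6180.2 ± 673 in MI4KO, a log2 fold change of 0.07 ± 0.10 (SE), and stayed above 0 in all 19 alternative settings. Nrap, a nebulin-related anchoring protein, had means of 5485 ± 627 and 5429.8 ± 287, and Smpx, a small muscle protein of the costamere, 415 ± 26.5 and 405 ± 53.7. None of these 3 passed the test.

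**Figure D3:**
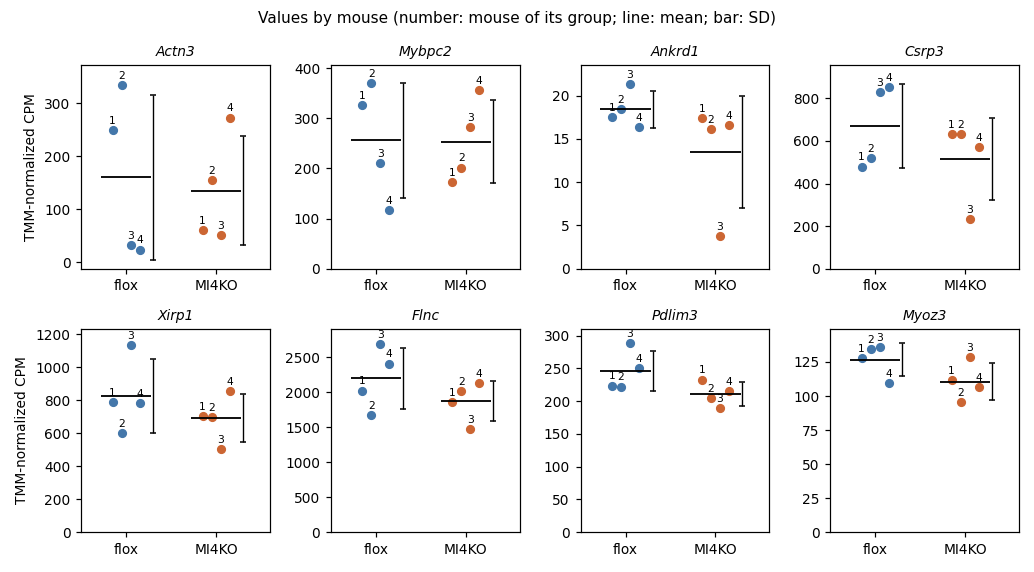
Values of 8 members in each mouse (TMM-normalized CPM on linear axes from about 0; points, mice numbered within their group; line, mean; bar, SD, n = 4). MI4KO mouse 3 is the lowest point for Ankrd1, Csrp3, Xirp1, Flnc and Pdlim3, and Actn3 splits the mice of each group into high and low values from 23.8 to 334.

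Genes of the thick filament and M-band did not separate the groups in any of 6 cases. Mybpc1, the slow myosin-binding protein C, had means of 5924 ± 547 and 5760.0 ± 135 (log2 fold change −0.04 ± 0.10, SE). Its fast paralog Mybpc2 was read at 326, 369, 211 and 117 in flox mice and 172, 202, 283 and 357 in MI4KO mice. Every MI4KO value lay between the lowest and highest flox values, with a log2 fold change of 0.06 (95% interval −0.62 to 0.74). Mybph, related to myosin-binding protein C, was near the limit of detection at 0.873 to 2.77, where a pseudocount of 1 understates any change. The myomesins, which cross-link thick filaments at the M-band, had log2 fold changes of 0.05 ± 0.10 (Myom1), −0.02 ± 0.11 (Myom2) and −0.07 ± 0.14 (Myom3). Myom1 means were 2423 ± 253 and 2509.7 ± 233, those of Myom2 798 ± 128 and 785 ± 83.1, and those of Myom3 873 ± 168 and 823 ± 112.

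Titin-linked genes, the ankyrin repeat proteins, calpain 3 and the MuRF ubiquitin ligases, gave the lowest fold change of the list. Ankrd1, encoding CARP, a cofactor known to rise in stretched or injured muscle, was read at 17.5, 18.5, 21.3 and 16.4 in flox mice and 17.4, 16.2, 3.79 and 16.6 in MI4KO mice. MI4KO mouse 3 lay 1.84 below the next lowest mouse on the log2(value + 1) scale, and the other MI4KO mice lay within or just under the flox range. The log2 fold change of −0.60 (95% interval −1.34 to 0.14) became −0.13 without that mouse, and Ankrd1 rested on 57 to 284 reads per library. Ankrd2, a slow-fiber relative, had 823, 681, 1096 and 1151 against 984, 948, 619 and 796 (−0.16 ± 0.17, SE), again lowest in MI4KO mouse 3. Ankrd23, also of this family, had means of 2542 ± 278 and 2596 ± 318 and did not share that low value.

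Capn3, a muscle protease held on titin, had means of 169 ± 16.7 and 167 ± 10.9. Trim54 (MuRF3) had the log2 fold change nearest 0 of all members, with 473 ± 29.9 in flox, 474 ± 40.3 in MI4KO and a 95% interval of −0.17 to 0.17. Trim55 (MuRF2) was low in both groups, at 32.5 ± 4.06 and 31.3 ± 2.82.

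Much of the spread lay between single mice. MI4KO mouse 3 held the lowest value of 12 members (29.3%, against 13.3% of all genes tested), namely Actn2, Ldb3, Lmod2, Lmod3, Xirp1, Flnc, Csrp3, Pdlim3, Myom3, Actc1, Ankrd1 and Ankrd2. It held the highest value of 7 others (Ttn, Myom1, Myoz1, Tmod1, Tmod4, Pdlim7 and Trim54), 17.1% against 30.9% of all genes. Flox mouse 3 was highest in 19 members (46.3%, against 15.8% of all genes) and lowest in none, and flox mouse 2 was lowest in 10 (24.4% against 15.3%). Members share their mouse and are not independent, so these shares are a description of the libraries. With flox mouse 1 and MI4KO mouse 3 both left out, Myoz3 and Pdlim3 were the 2 members at an unadjusted p under 0.05, with log2 fold changes of −0.27 and −0.21 and no adjusted p of a member below 0.895.

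**Figure D4:**
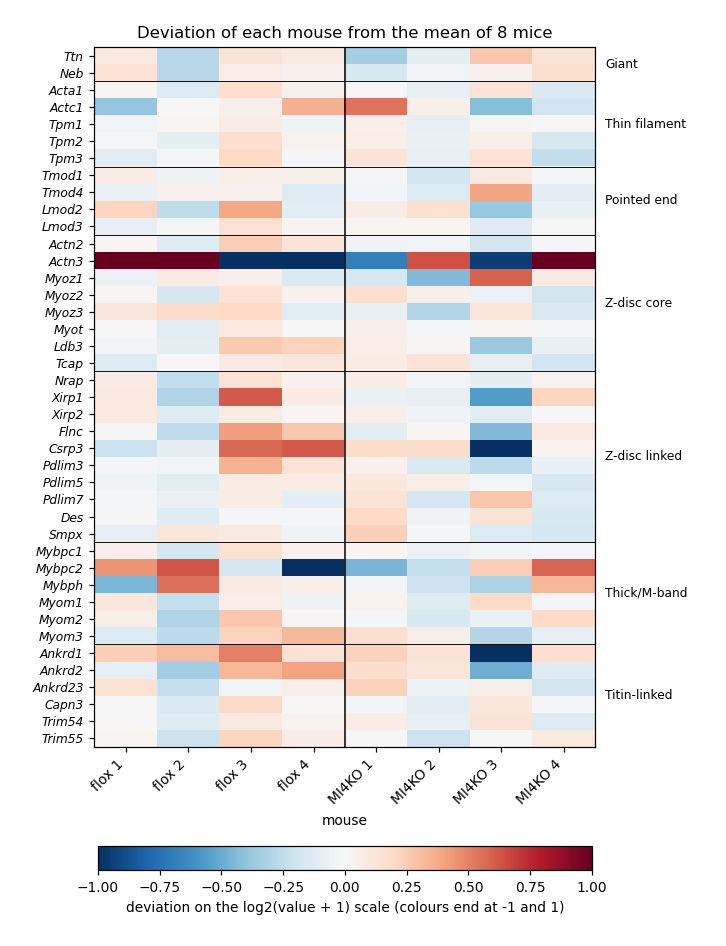
Deviation of each mouse from the mean of all 8 mice for every member on the log2(value + 1) scale (red, above; blue, below; colors end at −1 and 1), with members ordered by role and a line between the groups. Flox mouse 3 is red in most rows, and the darkest blue cells of MI4KO mouse 3 are in Ankrd1, Csrp3 and Actn3. In Actn3, flox mice 3 and 4 lie lower still (32.9 and 23.8 against 50.9). No block of rows is red in one group and blue in the other.

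In MI4KO mouse 3, 4 marker transcripts of regenerating fibers summed to 16.8 against 32.3 to 64.9 in the other 7 mice. Most of that gap was Myh3 (9.31 against 23.4 to 52.2). Myog (3.26) was also lowest there, while Myh8 (3.46) and Chrng (0.798) lay within the range of the other mice. The sum of 6 immune cell markers was 8.97 against 3.497 to 5.62. S100a8, S100a9 (1.79) and Itgam (2.99) were highest in that mouse. Ptprc (0.465) and Cd68 (2.13) lay within the range of the other mice, and Cd3e had no read. Heart muscle markers summed to 22.5 to 29.0 in 5 mice and to 1055 to 1460.3 in flox mouse 3 and MI4KO mice 3 and 4, nearly all of it Myh6, α-myosin heavy chain (1451, 1089 and 1045, chosen after its values were seen). Of the other heart markers, Nppb and Myl7 had no read in any mouse, and Nppa, Tnni3 and Mybpc3 stood at 0.499 or less. Ryr2 stood at 1.12 or less, while Tnnt2 was read at 7.82 to 11.7 over the 8 mice. Flox mouse 3 and MI4KO mouse 4, with like sums, had Ankrd1 values of 21.3 and 16.6 and Csrp3 values of 830.1 and 573. The part of the regenerating fiber and immune markers in the low Ankrd1 and Csrp3 values of MI4KO mouse 3 was not tested. None of 9 fast fiber, 7 slow fiber, 2 tested heart and 5 tested smooth muscle markers passed an unadjusted p of 0.05, nor did the tested liver, immune and regenerating fiber markers. Of 9 tested fibroblast and tendon markers 1 did, Fmod. Myl1, the gene of the Cre knock-in, is on none of these lists and was looked at after its values were seen. Its means were 3397 ± 233 in flox and 2558 ± 290 in MI4KO (SD, n = 4 each). The log2 fold change of Myl1 was −0.41 ± 0.10 (SE, limma, unadjusted p = 0.00135, adjusted p = 0.99996), and its cause was not tested. Mouse numbers in the labels fell into a lower range (1 flox and 2 MI4KO mice) and a higher range (3 flox and 2 MI4KO mice), and the labels do not say what the ranges stand for. The log2 difference between groups was −0.06 in the lower and −1.09 in the higher range for Ankrd1, 0.40 and −0.98 for Csrp3, −0.03 and −0.32 for Pdlim3, and −0.30 and −0.11 for Myoz3. In the same order it was −1.35 and 0.86 for Actn3, −0.80 and 0.60 for Mybpc2, −0.31 and 0.22 for Ttn, and −0.06 and −0.03 for Acta1.

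Actn3, the α-actinin of fast glycolytic fibers, varied most of all members. It was read at 249, 334, 32.9 and 23.8 in flox mice and 61.1, 154, 50.9 and 273 in MI4KO mice, a 14.1-fold range over 8 mice on 326 to 4811 reads. High and low mice occurred in both groups, and the log2 fold change was 0.24 (95% interval −1.45 to 1.93). Left out singly, flox mouse 2 moved it to 0.86 and flox mouse 4 to −0.39, and with flox mouse 1 and MI4KO mouse 3 both left out it was 1.08 (limma, unadjusted p = 0.184, adjusted p of every member at least 0.895). Myh4, the myosin heavy chain of the fastest fibers, was compared after its values were seen. It was read at 1807, 2496, 34.5 and 35.4 in flox and 278, 831, 55.8 and 2174 in MI4KO, and apart from the lowest pair the mice stood in the same order as for Actn3. Per kb, Actn3 made up 0.447% to 6.98% of both α-actinins, and Mybpc2 made up 2.07% to 7.20% of Mybpc1 plus Mybpc2.

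Of the myozenins, Myoz1 and Myoz2 were chosen as a fast and a slow member for comparison with fiber markers, and Myoz3 was not. Myoz1, the fast calsarcin, was read at 384, 424, 416 and 362 in flox mice and 358, 295, 604 and 425 in MI4KO mice. Myoz2, the slow calsarcin, had 1297, 1142, 1405 and 1318 against 1441, 1324, 1226 and 1122. Neither separated the groups (log2 fold changes 0.04 ± 0.17 and −0.02 ± 0.10, SE), and Myoz1 was 16.98% to 31.1% of both per kb. The log2 ratio of summed fast to slow markers, none of which is a member, was 0.53, 0.59, 0.44 and 0.40 in flox mice and 0.33, 0.33, 0.79 and 0.84 in MI4KO mice. MI4KO mice held both extremes of that ratio.

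Over the 8 mice, 8 relations with this ratio were computed, each on values that share a library. By rank, Myoz1 and Myoz2 followed it after adjustment, while their Pearson coefficients did not pass. Myoz1 was higher at higher ratios (Pearson r = 0.79, exact permutation p = 0.00819, adjusted 0.0655; Spearman rho = 0.95, exact permutation p = 0.00114, adjusted 0.00913). Myoz2 was lower at higher ratios (r = −0.81, exact permutation p = 0.0172, adjusted 0.0687, and rho = −0.86, exact permutation p = 0.0107, adjusted 0.0429). Without MI4KO mice 3 and 4, the 2 farthest from the median ratio, r was 0.78 for Myoz1 and −0.77 for Myoz2 (n = 6). Mybpc2 gave r = 0.71 (exact permutation p = 0.0526, adjusted 0.105) and rho = 0.79 (exact permutation p = 0.0279, adjusted 0.0745), with r = 0.76 over 6 mice. Ankrd2 gave r = −0.75 (exact permutation p = 0.0353, adjusted 0.0943) and rho = −0.71 (exact permutation p = 0.0576, adjusted 0.115), with r = −0.71 over 6 mice. Csrp3 (r = −0.65, rho = −0.64), Actn3 (r = 0.34, rho = 0.40), Tpm3 (r = −0.31, rho = −0.21) and Tpm1 (r = 0.17, rho = 0.21) gave adjusted exact permutation p-values of 0.122 to 0.686. Over 6 mice their r was −0.50, 0.54, −0.26 and 0.21. The ranges of mouse numbers hold 3 and 5 mice, under the 6 mice taken here as the least for a correlation.

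**Figure D5:**
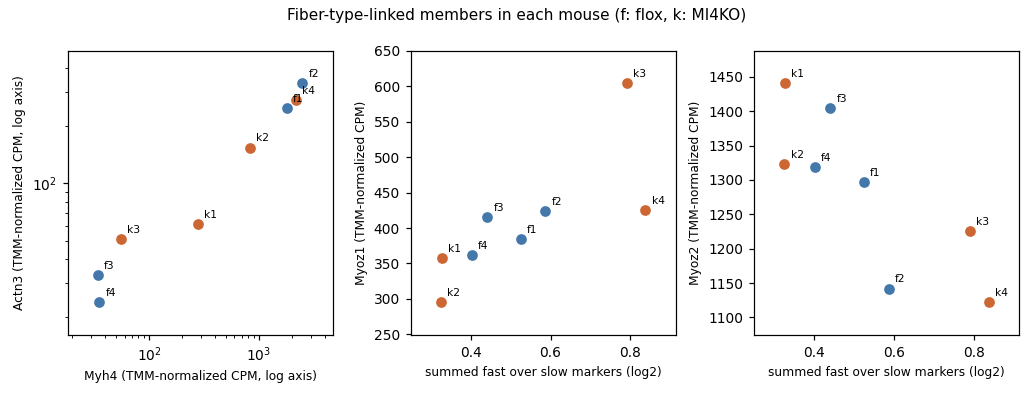
Actn3 against Myh4 (log axes) and Myoz1 and Myoz2 against the log2 ratio of summed fast to slow fiber markers (linear axes), with values in TMM-normalized CPM and 1 point per mouse (f, flox; k, MI4KO). MI4KO mouse 3 has the highest Myoz1 value (604) with a low Actn3 value (50.9), while MI4KO mouse 4 is high in Actn3 (273) and has the lowest Myoz2 value (1122).

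Beyond the 41 genes, 60 other sarcomere and sarcomere assembly genes were listed, of which 59 have a row and 57 were tested. Of these, 1 was lower in MI4KO at an unadjusted p under 0.05 and none was higher, beside 3.36% of all genes in either direction. It was Ky, which encodes the Z-disc-linked protein kyphoscoliosis peptidase, read at 51.5, 69.6, 53.3 and 55.9 in flox mice and 36.7, 32.0, 40.6 and 59.4 in MI4KO mice. Apart from MI4KO mouse 4, the MI4KO values lay below all flox values (log2 fold change −0.47 ± 0.16, SE; limma, unadjusted p = 0.0119, adjusted p = 1.0). The list holds no myosin heavy or light chain genes, so its count leaves out Myl1, a myosin light chain gene given above. Myl1 was also lower in MI4KO (log2 fold change −0.41 ± 0.10, SE, limma, unadjusted p = 0.00135, adjusted p = 0.99996).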

How the data were processed

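RNA-seq of SOL muscle from 4 MI4KO and 4 flox mice was analysed, with groups and mouse order taken from the labels. Stranded mRNA libraries were read by the authors as 50-base single reads, which were mapped with Bowtie2 2.1.0 to UCSC transcripts (mm10 per the submitters' processing notes, which also name bcl2fastq 2.17). Gene levels were estimated with RSEM 1.2.15. The deposited signal is TMM-normalized CPM per gene and mouse, and 0 columns were left unmapped. All values above 0 (100%) were whole multiples of 1 read within a tolerance of 0.05, which gave whole reads and depth, and 3 reads correspond to values of 0.181 to 0.225 (counting error only). The deposited score (a signed fold change) and p-value columns of the authors' own comparison, made with edgeR, were not used.

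Genes at 1 or more in 4 or more mice were tested on log2(value + 1) with limma 3.58.1 with an intensity trend (R 4.3.3), and p-values were adjusted by Benjamini-Hochberg over all 11865. Exact two-sided permutation tests ran through every arrangement of the mice. Intervals, ranks and the adjustment of the correlation p-values used scipy 1.17.1. Alternatives were other pseudocounts, filters, scalings and covariates, edgeR 4.0.16 and DESeq2 1.42.0 on recovered reads, and leaving out mice. Scripts were tested on simulated data. Positions, lengths and shared stretches came from GENCODE models of GRCm38.

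Members and gene lists were chosen with earlier results of these data known. A member was given in every mouse if its unadjusted p was under 0.05, its groups did not overlap, its SD was among the 5 largest, a mouse of its group was set apart by Dixon's limit, its level per kb was among the 3 highest, or it was 1 of 8 fast or slow members. Myoz3 and Flnc were also given so, and were chosen after their values were seen. Other sarcomere genes were named at an unadjusted p under 0.05.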

Additional observations from a re-analysis of the deposited data

Results flagged for a closer look

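In 6 of the 82 groups of 4 mice (41 members in each group), the lowest mouse stood farther from the next than Dixon's limit for 4 values allows. Chance sets apart about 1 group in 20, or 4.1 of 82. In MI4KO mouse 3, Ankrd1 was 3.79 (the other MI4KO mice 16.2 to 17.4), Csrp3 was 231 (573 to 634), Actn2 was 4427 (4926 to 5023) and Lmod3 was 262 (287 to 290.0). In flox mouse 2, Ttn was 8120.0 (the other flox mice 10571 to 10835) and Tmod1 was 151 (162 to 165). The 6 results fell in 2 of the 8 mice, and the part of the library as a whole in them was not tested.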

How the results depend on the processing

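No member reached an adjusted p under 0.05 in any of 19 alternatives, the smallest being 0.895. The number of members at an unadjusted p under 0.05 was 0 with median-of-ratios scaling, 0 with library size scaling, 0 with limma without the trend and 2 without flox mouse 1 and MI4KO mouse 3, and 0 to 3 when 1 mouse was left out (3 without flox mouse 2, 0 without flox mouse 3 or MI4KO mouse 2 or 4). With the mouse number range as covariate 1 member, Ankrd1, also passed 1.5-fold. With 1 mouse left out, 258 to 618 of the 11865 genes were at that unadjusted p, and 365 without flox mouse 2. Members whose groups did not overlap numbered 0 to 2 when 1 mouse was left out. The share over all genes was not counted in those settings, so these members cannot be set against it. In all, 12 members kept 1 sign throughout and 29 did not, and 5 passed an unadjusted p of 0.05 in some alternative (Pdlim3, Myoz3, Ankrd1, Xirp1 and Flnc). How many of all genes passed in some alternative was not counted. Actn3 turned to −0.23 with edgeR and −0.23 with DESeq2, and ranged from −0.39 to 0.86 with 1 mouse left out, reaching 1.08 without flox mouse 1 and MI4KO mouse 3. Mybpc2 turned to −0.11 with the fast to slow ratio as a covariate, −0.0079 with edgeR and −0.0066 with DESeq2, ranging from −0.27 to 0.28. Ttn turned to 0.0041 with median-of-ratios scaling, 0.028 with library size scaling, 0.031 with the number range, 0.0066 with edgeR and 0.0086 with DESeq2, ranging from −0.11 to 0.094, and Acta1 ranged from −0.10 to 0.00085. The cause of these shifts was not tested. With 4 mice a group, the intervals of Actn3, Mybpc2, Csrp3, Ankrd1 and Xirp1 reach past 1.5-fold. No paired analysis was possible because the labels give the mice no shared replicate numbers. Over all genes, 399 were at an unadjusted p under 0.05, against 248 with DESeq2, 634 without a filter, 637 without flox mouse 1 and MI4KO mouse 3, 258 without flox mouse 3 and 618 without MI4KO mouse 4. At 1.5-fold as well stood 26, against 71 with a pseudocount of 0.1, 65 with edgeR, 51 with DESeq2, 13 with robust moderation, 41 without both of those mice and 58 without MI4KO mouse 4.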
